A study of Mus musculus with 2 samples.

Results

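The cells described here are alveolar type 2 (AT2) cells, the surfactant-making cells of the lung, that carried little message of the activation programmes seen in other AT2 cells of the same mice. They were chosen barcode by barcode. A cell was kept with at least 500 genes detected and at most 15% mitochondrial UMIs (unique molecular identifiers, each standing for 1 counted mRNA molecule). It was called AT2 when at least 5 of 8 identity genes were detected (Lamp3, Slc34a2, Abca3, Etv5, Lpcat1, Hc, S100g and Napsa) and at most 1 of 7 genes of other lineages (Cdh5, Cldn5, Col1a2, Dcn, Ptprc, Ccdc153 and Msln). It was called without activation state when it passed 4 more steps: at most 2 of the transitional genes Ager, Sprr1a, Ndnf, Areg and Krt19 detected, fewer than 3 UMIs of the neutrophil chemokine genes Cxcl3 and Cxcl5 together, at most 2 of the interferon-induced genes Ly6i, F830016B08Rik, Iigp1, Igtp, Gbp2 and Cxcl9 detected, and at most 1 UMI of the anion exchanger gene Slc26a4. The rule left 2555 cells, 974 in the wild-type library and 1581 in the knockout-labelled library, of 9938 AT2 cells and of 21547 barcodes in all.

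The series holds 2 droplet 3' single-cell libraries of mouse lung cells without CD45.2 on their surface, a sort that takes out most blood-derived cells: 1 library from wild-type (WT) C57B6/J mice and 1 labelled Plaur KO, from mice given as Plaur–/–, for the gene of the urokinase receptor uPAR. All mice, 8 per genotype in the design, received lipopolysaccharide with ovalbumin on days 0 and 7 and an ovalbumin aerosol on day 14, so that no library comes from unchallenged lung. The labels do not give age or sex, the stretch of Plaur removed, or how many mice each library pooled, and they name the material total lung cell lysate. The series asks what uPAR does in the migration of eosinophils and in the reactivity of the airways. With 1 library per genotype, genotype and library cannot be told apart and no difference has a replicate check, so values are given with 95% intervals that cover counting error only and no test was made. The name KO-labelled marks the second library, and each direction rests on that label.

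AT2 cells make pulmonary surfactant, a film of phospholipid and surfactant proteins that lowers surface tension in the alveolus. The lipid is made from choline, fatty acids and cholesterol, packed into lamellar bodies with the help of the lipid transporter Abca3, and secreted together with the hydrophobic proteins encoded by Sftpb and Sftpc. AT2 cells also renew the epithelium, as progenitors of the flat AT1 cells, and take part in defence through lysozyme, the collectins encoded by Sftpa1 and Sftpd, MHC class II and alarmins. In an allergic lung they can respond to interleukins 4 and 13, and Slc26a4 and Retnla are known responders of airway and alveolar epithelium to those cytokines.

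The summed selected cells carried high levels of AT2 genes in both libraries. These genes were given with the cells or served to choose them, so their values are a description. Levels are UMIs per 1000000 UMIs of the selected cells of a library (CPM). Sftpc, on chromosome 14 from 70520949 to 70524081 (GRCm38), stood at 164665 CPM in the WT and 171456 CPM in the KO-labelled library and was detected in all cells. Scd1, the desaturase that makes the monounsaturated fatty acids of membrane lipid, stood at 4519 and 4850 CPM. Hc, which encodes complement component C5 and marks AT2 cells, stood at 1670 and 1819 CPM. Lamp3, a lamellar body membrane protein, had 1930 and 1858 CPM, and Etv5, the FGF-responsive transcription factor of AT2 cells, had 488.4 and 492.6 CPM. All 8 identity genes were detected in 78.5% of the WT and 75.6% of the KO-labelled cells, which the choice of cells favours. The 21 and 18 cells with only 5 identity genes went against the label: they held Scgb1a1, the main secreted protein of club cells in the airway, at 374068 and 324336 CPM, and Sftpc at 29476 and 52369 CPM. Of the transitional genes, Ager, an AT1 gene, was found in 95.2% and 95.5% of the selected cells (810.2 and 912.9 CPM), against 1.61% and 1.48% of endothelial cells, whose median depth was 1434 and 1430 UMIs against 5743 and 5276 in the selected cells. Ager was thus detected in nearly every cell that the rule calls free of a transitional state.

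Plaur, which encodes uPAR and is named in the label (chromosome 7 from 24462484 to 24475968), was scarce in the selected cells and was higher in the library labelled as its knockout. It had 7 UMIs in the WT (1.22 CPM) and 149 in the KO-labelled library (17.4 CPM), a log2 ratio of 3.84 (the log2 of the KO-labelled over the WT CPM, with its exact conditional 95% interval of 2.76 to 5.18). A UMI was found in 0.719% and 8.16% of the selected cells, against 21.1% and 23.3% of endothelial and 18.6% and 13.4% of mesenchymal cells, which express the gene. The cells that failed only the Slc26a4 step had 2.13 and 15.4 CPM. Reads come from the 3' end of the message and the removed stretch of the gene is not given, so the tags check neither the label nor the protein. Among the other plasminogen system genes Anxa2, a plasminogen-binding protein, had 238.8 and 219.5 CPM (-0.12), Itgb6, an integrin chain, 17.9 and 10.1 CPM (-0.83, -1.26 to -0.40). Plau, the gene of the ligand urokinase, had 1 and 0 UMIs.

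The libraries shared 30 cell barcodes, none of them among the selected cells of both, and 5 barcodes of selected cells were found in the other library. Scrublet marked 30 and 7 of the selected cells as possible doublets, which were kept. RNA of other cells was present and was higher in the WT library. Cells carrying RNA of other cells are those with more than 1% Scgb1a1 UMIs or at least 3 of 7 markers of another lineage, a limit set after seeing the data: 49 in the WT and 36 in the KO-labelled library. The 7 airway secretory markers summed to 15486 CPM in the WT and 7331 CPM in the KO-labelled library, most of it Scgb1a1. In the WT library 18 cells held 93.2% of the Scgb1a1 UMIs, and in the KO-labelled library 17 cells held 96.0%. Scgb1a1 was detected in 98.8% and 63.9% of the selected cells and in 92.3% and 26.5% of endothelial cells. Without the cells carrying RNA of other cells, its mean was still 3.03 UMIs in WT and 0.797 in KO-labelled cells thinned to equal depth. Leaving those cells out thus did not remove Scgb1a1 RNA spread over many cells, which remained higher in the WT library. Mesenchymal markers summed to 161.3 and 89.4 CPM, ciliated markers to 88.6 and 35.4 CPM, endothelial markers to 37.3 and 26.3 CPM, immune markers to 15.6 and 4.57 CPM and mesothelial markers to 12.5 and 3.28 CPM, where Lrrn4 was at 0 in the KO-labelled library. Of the erythroid markers 5 of 5 were at 0 in the WT and 3 of 5 in the KO-labelled library. Single cells held most of some messages, among them the immunoglobulin genes Ighg1 and Igkc, whose 518 and 626 WT UMIs lay almost wholly in 1 cell each (508 and 565 UMIs). For Ccl20, a chemokine, 116 of 182 WT UMIs came from 1 cell, and the KO-labelled library held 20 UMIs.

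Most AT2 cells were left out by the Slc26a4 step, which 2713 of 4002 WT cells (67.8%) and 4024 of 5936 KO-labelled cells (67.8%) did not pass. The chemokine step removed 21.2% and 25.4%, the transitional step 17.2% and 14.1%, and the interferon step 9.27% and 7.26%. These shares overlap, since 1305 WT and 2054 KO-labelled cells failed 2 or more steps. The cells without activation state were 24.3% of WT AT2 cells (95% exact binomial interval 23.01 to 25.7) and 26.6% of KO-labelled AT2 cells (25.5 to 27.8), a difference of 2.30 percentage points. The steps depend on depth, and AT2 cells of the 2 libraries had medians of 6502 and 6210 UMIs. When every AT2 cell was thinned to 3000 UMIs before the steps, the shares were 37.8% and 35.1%, so the order of the libraries turned. Over all cells of the sort that passed the quality filter, the selected cells made up 8.98% and 17.4%, which also moves with the AT2 share of each library, 36.9% and 65.2%.

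Cells just inside and just outside each limit of the rule differed by unequal steps. With 5 identity genes detected Sftpc was 29476 and 52369 CPM, against 1674 and 36273 CPM in the 20 and 7 otherwise fitting cells with 4, which were left out. Scgb1a1 was higher than Sftpc on both sides of that limit, at 374068 and 324336 CPM in the kept cells and 504648 and 281080 CPM in those left out. With 1 gene of another lineage detected (106 and 59 cells kept) Sftpc was 149430 and 160648 CPM, and with 2 (41 and 45 cells left out) it was 114702 and 121907 CPM. The chemokine limit kept 14 and 14 cells at 2 UMIs and left out 4 and 6 at 3. The kept cells at 2 chemokine UMIs also held much Scgb1a1, 238090 and 226818 CPM, against 1019 and 255.9 CPM in the cells left out at 3. The interferon limit kept 34 and 13 cells with 2 genes and left out 7 and 6 with 3. The transitional limit cut through many more cells, keeping 373 and 588 with 2 genes and leaving out 154 and 212 with 3.

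Around the Slc26a4 limit the numbers were 287 and 374 cells with 1 UMI, kept, and 186 and 229 with 2 UMIs, left out. Genes that the rule did not use moved with the Slc26a4 count on both sides of that limit. Retnla, which encodes the secreted protein RELM-alpha, had 270.2, 422.9, 591.8, 1074, 1413 and 3183 CPM in WT cells with 0, 1, 2, 3, 4 to 9 and 10 or more Slc26a4 UMIs. In the KO-labelled library the same bands held 159.7, 278.7, 950.7, 1726, 3057 and 6534 CPM. Retnla was thus lower in the KO-labelled library in the lowest pair of bands and higher in the other 4. Airway RNA also differed by band. Scgb1a1 had 17496, 6230, 5403, 3780, 1007 and 3643 CPM in the WT bands. In the KO-labelled bands it had 8341, 294.2, 14883, 216.8, 597.6 and 184.9 CPM. Airway secretory cells held Retnla at 8700 and 10544 CPM, and the part of their RNA in these Retnla values was not tested. Lcn2, the siderophore-binding antibacterial protein lipocalin 2, climbed from 1383 to 3730 CPM in the WT and from 927.7 to 4092 CPM in the KO-labelled library between the lowest and the highest band. Il33, an alarmin of type 2 immunity, went from 668.4 to 1852 and from 674.4 to 2642 CPM. Sftpc stayed between 151786 and 166730 CPM in the WT bands and between 164199 and 173145 CPM in the KO-labelled bands. Median depth also grew across the bands, from 5747 to 6735 and from 5218 to 6678 UMIs, and its part in these gradients was not tested.

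**Figure D1:**
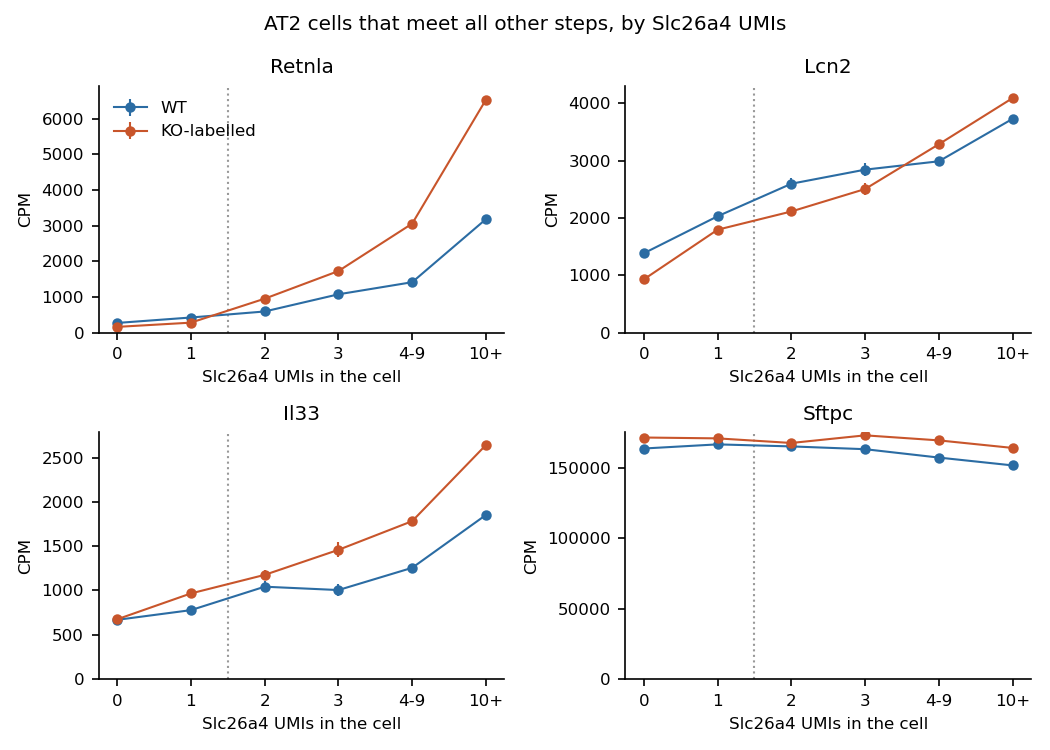
CPM of Retnla, Lcn2, Il33 and Sftpc (y axes, from 0) in AT2 cells that pass all other steps, grouped by their Slc26a4 UMIs (x axes), in the WT (blue) and KO-labelled (orange) library. Vertical bars are exact 95% Poisson intervals and the dotted line marks the limit of the rule; Retnla reaches 3183 and 6534 CPM in the highest band while Sftpc stays between 151786 and 173145 CPM.

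The surfactant genes themselves were almost level between the libraries. The genes Sftpa1, Sftpb, Sftpc and Sftpd took 19.7% of all UMIs of the selected cells in the WT and 20.6% in the KO-labelled library. Sftpa1, a collectin gene, had 21708 and 22990 CPM (log2 ratio 0.08, interval 0.07 to 0.09). Sftpb had 6432 and 6763 CPM (0.07, 0.05 to 0.09) and Sftpd, the other collectin gene, 4156 and 4367 CPM (0.07, 0.05 to 0.09). The 4 ratios lay above the counting error and close to each other, and the median of all genes was -0.04 over the 8621 genes with at least 100 UMIs in the selected cells. Scaling by edgeR TMM factors would add 0.04 to every ratio.

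Genes of lamellar bodies and surfactant processing differed little. Abca3, Lamp3, Slc34a2, Napsa and Lpcat1 of this list served to choose the cells, so their likeness is no result. Of 19 listed genes 18 were measured and none lay 1.5-fold apart, with a median log2 ratio of -0.03. Over all 8621 genes 75 (0.870%) were at least 1.5-fold higher in the KO-labelled library and 180 (2.09%) at least 1.5-fold lower. Of the members that the rule did not use, Ctsh, a protease that processes surfactant proteins, had 984.9 and 1108 CPM (0.17). Atp8a1, a phospholipid flippase, had 1601 and 1683 CPM (0.07), and Cd63, a tetraspanin of late endosomes and lamellar bodies, 509.9 and 468.4 CPM (-0.12). Npc2, a sterol-binding protein of the lysosome, had 3847 and 4078 CPM (0.08).

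Lipid synthesis genes lay mostly a little above the median of all genes. Of the cholesterol synthesis and uptake genes, 23 of 25 were measured and 22 of these lay above the median of all genes, though none by 1.5-fold, and the list median was 0.20. Stard4, a cytosolic sterol carrier, had 28.5 and 42.3 CPM (0.57, 0.30 to 0.84). Pmvk, phosphomevalonate kinase, had 134.9 and 193.0 CPM (0.52, 0.39 to 0.64). Fdft1, squalene synthase, had 62.7 and 85.7 CPM (0.45, 0.27 to 0.64). Hmgcs1, which makes HMG-CoA, had 169.7 and 196.4 CPM (0.21, 0.10 to 0.33). Ebp, a sterol isomerase, was the measured member below the median of all genes, at 31.3 and 26.5 CPM (-0.24, -0.53 to 0.05).

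The fatty acid list had a median of 0.07, with 13 of 18 measured members above the median of all genes and none 1.5-fold apart. Fasn, fatty acid synthase, had 724.9 and 768.6 CPM (0.08). Scd2, a second desaturase, had 449.4 and 539.2 CPM (0.26, 0.19 to 0.33), and Fabp5, a fatty acid carrier, 901.8 and 1072 CPM (0.25, 0.20 to 0.30). On the other side of 0 stood Elovl1, which elongates very long chain fatty acids, with 932.6 and 649.8 CPM (-0.52, -0.58 to -0.47), and Me1, malic enzyme, with 227.7 and 173.5 CPM (-0.39, -0.50 to -0.28). Of the phosphatidylcholine genes Chka, choline kinase, stood apart at 334.7 and 440.4 CPM (0.40, 0.32 to 0.48), while the list median was 0.02. Lpcat1 of that list served to choose the cells. Of 11 measured genes of sterol export and lipid droplets 7 lay below the median of all genes. None was 1.5-fold apart, and the list median was -0.12. Apoe, which carries exported lipid, had the highest ratio of this list, 394.4 and 580.9 CPM (0.56, 0.49 to 0.63). Apoe is over 10 times higher in mesenchymal cells (6486 CPM). Abca1 had the lowest ratio, 13.9 and 9.83 CPM (-0.50, -0.96 to -0.04).

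AT2 transcription factors kept their levels. Nkx2-1, the lung lineage factor, had 296.4 and 325.1 CPM (0.13, 0.05 to 0.22), and Cebpa, a regulator of AT2 maturation, 165.3 and 162.3 CPM (-0.03, -0.15 to 0.09). None of the 19 measured factors lay 1.5-fold apart and the list median was -0.03. Etv5 of this list served to choose the cells, so its likeness is no result. Cebpd, which responds to inflammation and glucocorticoids, had the lowest ratio, 294.7 and 212.5 CPM (-0.47, -0.57 to -0.38). Of 13 measured genes of FGF and EGF receptors and their feedback, 5 lay above the median of all genes. None was 1.5-fold apart, and the list median was -0.11. Etv5 and Areg of this list were genes of the rule, so their values are a description. Fgfr2, the receptor for the FGF signals that maintain AT2 cells, had 577.3 and 494.3 CPM (-0.22, -0.29 to -0.16). The feedback gene Spry2 had the lowest ratio of this list, 61.7 and 48.4 CPM (-0.35, -0.56 to -0.14). Hbegf had the highest, 28.5 and 39.8 CPM (0.48, 0.21 to 0.76). Of 23 cell cycle genes 6 reached 100 UMIs, with a median of 0.01, and Mki67, a marker of dividing cells, had 1 UMI in the WT and 9 in the KO-labelled library.

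Genes of the path from AT2 to AT1 cells had ratios on both sides of 0. Of 17 measured transition genes 1 was at least 1.5-fold higher and 4 were at least 1.5-fold lower, against 0.870% and 2.09% of all genes, with a median of -0.11, and of -0.02 without the 6 genes that are over 10 times higher in another compartment. Krt8, a keratin of the transitional state, had 196.9 and 202.1 CPM (0.04, -0.07 to 0.15), and Cldn18, a tight junction claudin, 641.4 and 635.1 CPM (-0.01, -0.07 to 0.05). The lower ones were Gdf15, S100a6, Itgb6 and Tm4sf1, and the higher one was Plaur. S100a6, Tm4sf1 and Plaur are among the 6 genes that are over 10 times higher in another compartment. Of 11 measured AT1 genes 8 lay above the median of all genes, with ratios from -0.22 to 1.12 and a median of 0.05. Cyp2b10 was at least 1.5-fold higher and none was 1.5-fold lower. The median was 0.14 without Hopx, Cav2 and Clic5, which are over 10 times higher in another compartment. Ager of the AT1 list and Krt19 of the transition list were genes of the rule, so their values are a description. Hopx, a homeodomain factor, had 20.5 and 17.6 CPM (-0.22, -0.58 to 0.14), and Aqp5, a water channel, 281.2 and 290.6 CPM (0.05, -0.04 to 0.14). The lists of clock, ion transport, tight junction and Wnt response genes had medians between -0.02 and 0.06. Slc34a2 of the ion transport list served to choose the cells.

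**Figure D2:**
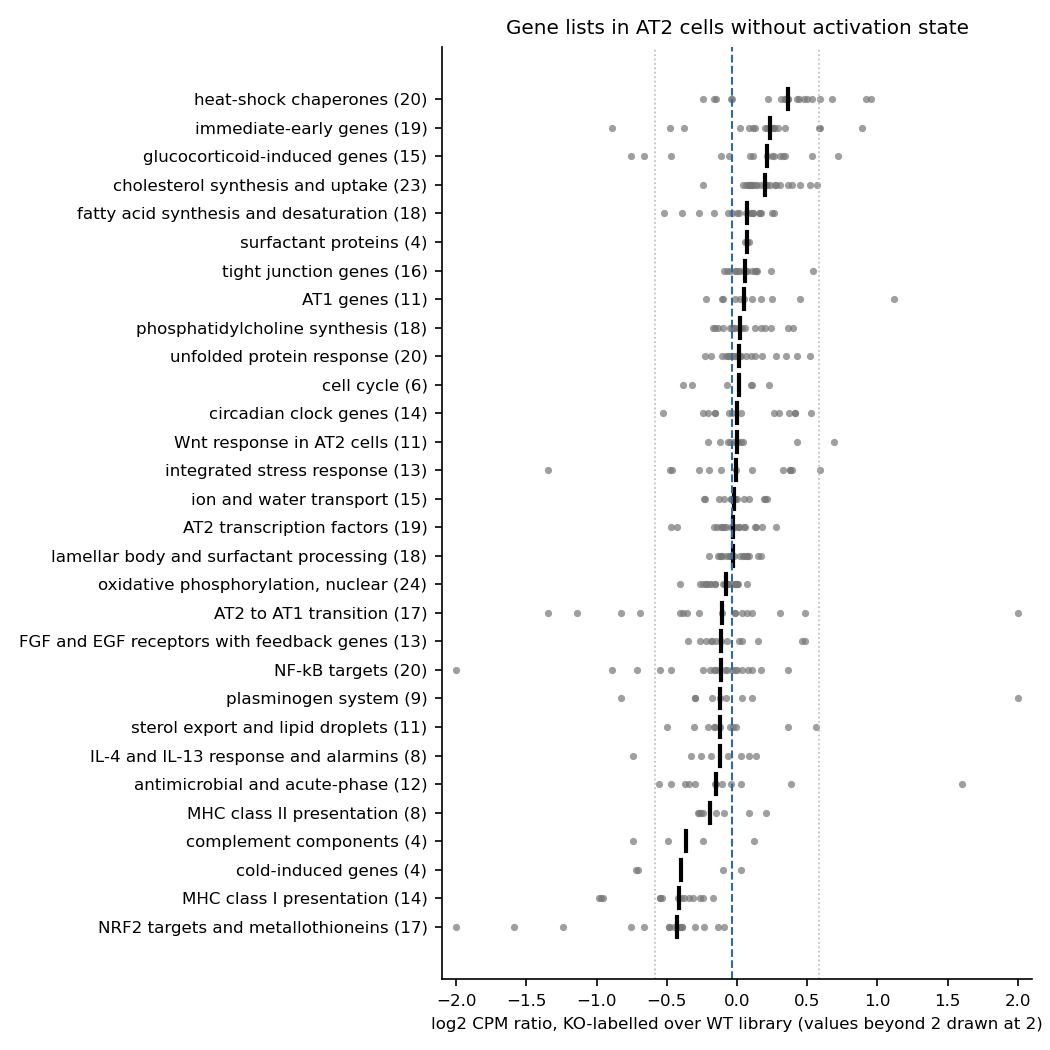
Log2 CPM ratios of KO-labelled over WT library (x axis) for the measured members (grey points, number in brackets) of each gene list (y axis), with the list median as a black bar, the median of all genes as a dashed line and 1.5-fold as dotted lines. Medians run from -0.42 for NRF2 targets and -0.41 for MHC class I to 0.36 for heat-shock chaperones.

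The widest shift among the lists above the median of all genes was that of the cytosolic heat-shock chaperones, the proteins that fold and refold other proteins under the control of the factor Hsf1. All 20 listed genes were measured, and 15 lay above the median of all genes. At least 1.5-fold higher were 4 and none was 1.5-fold lower, against 0.870% and 2.09% of all genes. The list median was 0.36, and 0.41 without the cells carrying RNA of other cells. The median was 0.34 without Hsp90aa1, Hsph1, Stip1 and Ahsa1, which are over 10 times higher in another compartment. Hspa8, the constitutive cytosolic Hsp70 (chromosome 9 from 40800984 to 40810087), had 517.7 CPM in the WT and 1001 CPM in the KO-labelled library (0.95, 0.89 to 1.01). Hsp90ab1, the constitutive Hsp90, had 811.5 and 1225 CPM (0.59, 0.54 to 0.64), and Hsp90aa1, its inducible partner, 429.0 and 582.9 CPM (0.44, 0.37 to 0.51). The co-chaperone genes Ahsa1 (18.2 and 29.2 CPM, 0.68), Stip1 (30.04 and 43.4 CPM, 0.53) and Fkbp4 (167.9 and 234.0 CPM, 0.48) lay on the same side.

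Members that are strongly induced by heat had a range of ratios. Hspa1a and Hspa1b, near-identical copies whose reads may be split between them, had 19.8 and 24.6 CPM (0.31, -0.02 to 0.65) and 7.47 and 10.5 CPM (0.50, -0.04 to 1.06). Dnajb1 had 23.1 and 22.5 CPM (-0.04), Bag3 36.3 and 32.4 CPM (-0.16) and Cryab 56.3 and 47.5 CPM (-0.24, -0.46 to -0.03). Genes of the unfolded protein response of the endoplasmic reticulum were level, with a list median of 0.02 over 20 members and Hspa5 at 328.4 and 330.0 CPM (0.01). Hspa8 was also higher in the KO-labelled library in cells of other kinds, at 553.4 and 1204 CPM in endothelial, 776.3 and 1290 CPM in mesenchymal and 426.7 and 809.9 CPM in airway secretory cells (188 and 44 cells). Hspa8 was thus higher in the KO-labelled library in each of these cell types, and genotype and library cannot be told apart.

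Promoter sequences of chaperones on this list are shown because 15 of its 20 members lay above the median of all genes. RefSeq (GRCm38.p6) gave a promoter of 250 bases before to 50 bases after the start for 15 of the 20 genes. No window was available for Hspa8, Hsp90aa1, Hsp90ab1, Cryab and Hsf1. The heat shock element, searched on both strands as 3 alternating blocks of GAA and TTC with 2 free bases between neighbours (matches may overlap one another), was found in 4 of these 15 (26.7%), Chordc1, Hspd1, Hspe1 and Hsph1, against 179 of 27025 genes in the table (0.662%). A match describes the letters only and says nothing of a bound factor. Capitals mark the matched bases in the windows of Chordc1 (chr9:18292017-18292316, plus strand), Hspe1 (chr1:55087898-55088197, plus strand) and Hsph1 (chr5:149636266-149636565, minus strand). The Hspd1 window lies on the other strand over 285 of the same bases as that of Hspe1.
Chordc1: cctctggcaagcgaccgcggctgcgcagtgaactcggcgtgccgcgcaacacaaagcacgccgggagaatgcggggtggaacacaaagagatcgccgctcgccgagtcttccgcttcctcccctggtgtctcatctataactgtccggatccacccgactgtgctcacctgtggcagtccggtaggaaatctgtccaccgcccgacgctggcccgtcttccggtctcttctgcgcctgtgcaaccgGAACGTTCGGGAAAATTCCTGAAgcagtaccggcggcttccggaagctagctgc
Hspe1: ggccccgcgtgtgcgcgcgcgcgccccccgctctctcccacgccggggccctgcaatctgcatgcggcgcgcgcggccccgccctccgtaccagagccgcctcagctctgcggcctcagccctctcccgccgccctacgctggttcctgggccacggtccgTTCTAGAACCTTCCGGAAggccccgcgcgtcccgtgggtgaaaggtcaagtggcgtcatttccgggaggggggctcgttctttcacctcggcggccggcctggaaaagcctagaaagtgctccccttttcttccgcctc
Hsph1: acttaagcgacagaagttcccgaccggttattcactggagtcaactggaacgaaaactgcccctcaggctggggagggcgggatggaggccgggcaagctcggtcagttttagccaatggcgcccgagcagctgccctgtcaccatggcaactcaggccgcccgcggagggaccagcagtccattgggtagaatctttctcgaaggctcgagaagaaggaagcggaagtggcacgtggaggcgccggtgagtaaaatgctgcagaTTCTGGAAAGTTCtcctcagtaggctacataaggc

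The 4 genes with the element had log2 ratios between 0.22 and 0.92, against a median of 0.36 over the whole heat-shock list. Chordc1, an Hsp90 co-chaperone, had 38.7 and 49.1 CPM (0.34, 0.10 to 0.58). Hspe1 and Hspd1, the mitochondrial chaperonin pair that shares 1 promoter region, had 130.1 and 164.5 CPM (0.34, 0.21 to 0.47) and 86.3 and 100.3 CPM (0.22, 0.06 to 0.38). Hsph1, a nucleotide exchange factor for Hsp70, had 12.5 and 23.7 CPM (0.92, 0.52 to 1.33).

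The sterol regulatory element, searched as TCACNCCAC on both strands, was found in 1 of 17 cholesterol-list promoters (5.88%) and 388 of all 27025 (1.44%). Of the heat-shock promoters 1 of 15 (6.67%) held this element. The promoter of Hmgcs1 (chr13:119690101-119690400, plus strand) is shown as the cholesterol-list window that holds the letters, with the match in capitals.
Hmgcs1: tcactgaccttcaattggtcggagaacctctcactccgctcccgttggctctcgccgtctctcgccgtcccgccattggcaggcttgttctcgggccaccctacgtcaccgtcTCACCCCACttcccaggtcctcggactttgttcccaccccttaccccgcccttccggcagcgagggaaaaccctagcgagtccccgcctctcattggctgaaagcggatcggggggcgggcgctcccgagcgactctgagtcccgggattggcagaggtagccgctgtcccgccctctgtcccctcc
The other 16 windows do not hold these letters, among them those of Pmvk and Idi1, and in the fatty acid list no window of 17 did.

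Genes of fast responses to stimulation or handling formed the next list on the higher side. Of 19 measured immediate-early genes 16 lay above the median of all genes, and the list median was 0.23. At least 1.5-fold higher were 2 and lower by that much was 1, against 0.870% and 2.09% of all genes. Fosb had 214.3 and 397.3 CPM (0.89, 0.80 to 0.99), Fos 527.6 and 788.8 CPM (0.58, 0.52 to 0.64) and Atf3 237.2 and 356.5 CPM (0.59, 0.49 to 0.68). All encode AP-1 or related factors. Nr4a3, an orphan receptor gene, was the lower one, at 11.3 and 6.09 CPM (-0.89, -1.45 to -0.34). Over all AT2 cells, without the activation steps, the list median was -0.09, on the other side of 0.

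Glucocorticoid-induced genes had a median of 0.22 over 15 members, 10 of them above the median of all genes. Zbtb16, a glucocorticoid-induced transcription factor, had 79.0 and 114.6 CPM (0.54, 0.37 to 0.70), Errfi1, a feedback inhibitor of EGF receptor signalling, 1116 and 1415 CPM (0.34, 0.30 to 0.39), and Tsc22d3, which encodes GILZ, 70.3 and 83.5 CPM (0.25, 0.07 to 0.43). The metallothionein genes of the same list lay opposite, Mt1 at 131.6 and 83.2 CPM (-0.66, -0.81 to -0.51) and Mt2 at 14.2 and 8.43 CPM (-0.76, -1.23 to -0.28). The list median was 0.25 without Mt1, Mt2, Cdkn1a and Cebpb, which are over 10 times higher in another compartment.

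Lists on the lower side were led by antioxidant genes. All 17 measured NRF2 targets and metallothioneins lay below the median of all genes. At least 1.5-fold lower were 5, against 2.09% of all genes. The list median was -0.42 and was -0.42 without the cells carrying RNA of other cells. That step leaves RNA spread over many cells in place. Gclc, the catalytic subunit of the enzyme that limits glutathione synthesis, had 1485 and 1118 CPM (-0.41, -0.45 to -0.37). Txnrd1, thioredoxin reductase, had 161.2 and 115.1 CPM (-0.49, -0.62 to -0.35), and Srxn1, sulfiredoxin, 29.4 and 12.4 CPM (-1.24, -1.61 to -0.88). Ftl1, ferritin light chain, had 1571 and 1122 CPM (-0.49, -0.53 to -0.44) and Fth1 3232 and 2751 CPM (-0.23, -0.26 to -0.20). Gpx2, at 37.5 and 7.02 CPM, is over 10 times higher in airway secretory cells (546.1 CPM), whose RNA also differed between the libraries, as given above. Gclm, Mt1 and Mt2 are also over 10 times higher in another compartment, and the list median was -0.40 without these 4 genes.

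Antigen presentation by MHC class I was the other list with every measured member below the median of all genes, 14 of 14. At least 1.5-fold lower were 3, against 2.09% of all genes. The list median was -0.41 and was -0.40 without the cells carrying RNA of other cells. That step leaves RNA spread over many cells in place. B2m, the shared light chain, had 389.7 and 269.1 CPM (-0.53, -0.62 to -0.45), H2-K1 869.2 and 649.6 CPM (-0.42, -0.48 to -0.36), and H2-D1 630.4 and 508.0 CPM (-0.31, -0.38 to -0.25). H2-Q7, a non-classical class I gene, had 92.6 and 46.9 CPM (-0.98, -1.17 to -0.79). The immunoproteasome genes Psmb9 and Psmb10 had 37.7 and 25.8 CPM (-0.55) and 34.9 and 23.9 CPM (-0.55). H2 genes are close copies of each other, and the split of reads among them is uncertain.

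MHC class II genes, which AT2 cells express without being professional immune cells, were lower by less. The median was -0.20 over 8 members, none 1.5-fold apart. Cd74, the invariant chain, had 2694 and 2426 CPM (-0.15, -0.18 to -0.12), H2-Aa 721.9 and 605.2 CPM (-0.25, -0.31 to -0.20) and H2-Ab1 573.1 and 474.6 CPM (-0.27, -0.34 to -0.21). Ciita, the master regulator of class II, had 18.8 and 19.9 CPM (0.09, -0.27 to 0.45).

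Secreted defence genes were mostly a little lower, with 9 of 12 below the median of all genes and a list median of -0.15. Pglyrp1 (1.60, 1.23 to 1.98) was at least 1.5-fold higher and none was 1.5-fold lower, against 0.870% and 2.09% of all genes. Saa3 (0.38) and Lyz1 (0.03) also lay above the median of all genes. Pglyrp1, Slpi and Saa3 are over 10 times higher in another compartment, and the list median was -0.16 without them. Lcn2 had 1575 and 1138 CPM (-0.47, -0.51 to -0.43), Lrg1, an acute-phase glycoprotein, 534.5 and 363.8 CPM (-0.56, -0.63 to -0.48), and Hp, haptoglobin, 951.7 and 772.8 CPM (-0.30, -0.35 to -0.25). Lyz2, the lysozyme of AT2 cells and macrophages, had 23244 and 22607 CPM (-0.04). Cxcl15, the lung-restricted chemokine, which is listed with the NF-kB targets, had 6124 and 5455 CPM (-0.17, -0.19 to -0.15). Of 20 measured NF-kB targets 3 were at least 1.5-fold lower, against 2.09% of all genes, and the list median was -0.11. Among these targets Sod2 had 207.4 and 141.8 CPM (-0.55, -0.67 to -0.43).

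**Figure D3:**
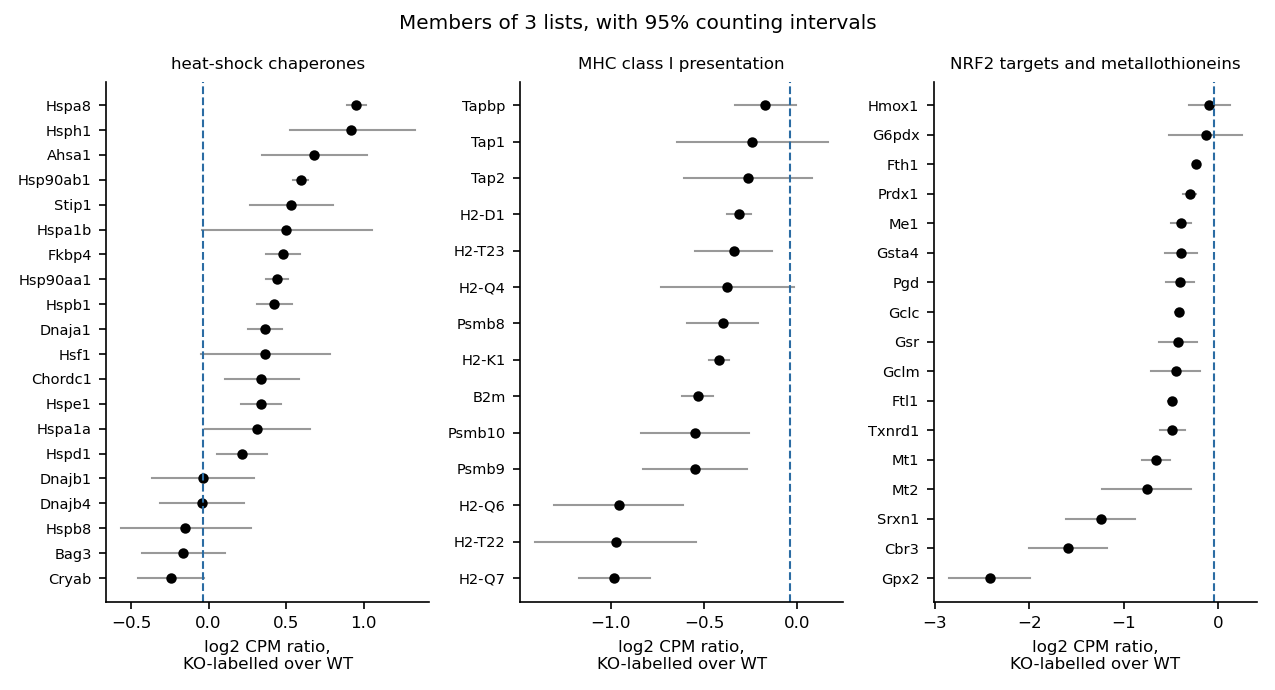
Log2 CPM ratios of KO-labelled over WT library (x axes) with 95% counting intervals for each measured member (y axes) of the heat-shock, MHC class I and NRF2 lists in AT2 cells without activation state. The dashed line is the median of all genes, -0.04; every MHC class I and NRF2 member lies to its left and 15 of 20 chaperones to its right.

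Across all 8621 genes the libraries were alike, with a Spearman correlation of CPM of 0.98 across genes, which are not independent replicates. At least 2-fold higher in the KO-labelled library were 9 genes (0.104%) and at least 2-fold lower 42 (0.487%). Of the 42, 30 are over 10 times higher in cells of another compartment, as are 2 of the 9. Without the 49 WT and 36 KO-labelled cells carrying RNA of other cells, 25 genes were at least 2-fold lower.

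The 12 named genes highest in the KO-labelled library had at least 200 UMIs, 30 CPM in the higher library and no 10-fold higher level in another compartment. Cyp2b10, a xenobiotic-metabolising cytochrome P450, had 38.7 and 83.9 CPM (1.12, 0.90 to 1.34). It was found in 14.99% and 28.1% of the cells, against 0.0489% and 0.223% of endothelial cells. Its highest level in another compartment of either library was 343.9 CPM, in ciliated cells. Rab3c, a small GTPase of vesicle secretion, had 21.7 and 45.0 CPM (1.05, 0.76 to 1.35), and Ide, the insulin-degrading enzyme, 28.0 and 57.1 CPM (1.03, 0.771 to 1.297). Camk1d, a calmodulin-dependent kinase, had 873.2 and 1560 CPM (0.84, 0.79 to 0.88), and Rgcc, a regulator of the cell cycle, 171.1 and 299.7 CPM (0.81, 0.70 to 0.92). The others were Etfbkmt, Hspa8, Sec14l2, Depp1, Fosb and Prcd, with log2 ratios from 0.78 to 0.99, and Cmss1. Camk1d was also higher in the KO-labelled library in endothelial cells, at 684.5 and 928.6 CPM.

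Cmss1 had the highest ratio of these, 1518 and 3604 CPM (1.25, 1.21 to 1.28). It overlaps Filip1l on the opposite strand, and whether reads were counted by strand or in introns is not stated. Gm42418, a gene that overlaps ribosomal RNA and AY036118, moved the same way, at 45653 and 64882 CPM (0.51, 0.50 to 0.51), as did Lars2, at 828.2 and 1164 CPM (0.49, 0.44 to 0.54). Cmss1 was also higher in endothelial (2158 and 3938 CPM) and mesenchymal cells (1074 and 2680 CPM) of the KO-labelled library.

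The 12 named genes lowest in the KO-labelled library were led by Gdf15, a stress-induced cytokine of the TGF-beta family, at 40.5 and 15.9 CPM (-1.35, -1.66 to -1.03). Fstl4, a follistatin-like gene, had 32.8 and 13.8 CPM (-1.25, -1.59 to -0.91), Pdzd2 31.1 and 13.4 CPM (-1.22, -1.57 to -0.87) and Gsta3, a glutathione transferase, 57.7 and 26.9 CPM (-1.10, -1.35 to -0.85). The cold-inducible RNA-binding protein genes Rbm3 and Cirbp had 125.6 and 76.3 CPM (-0.72, -0.87 to -0.56) and 67.0 and 41.2 CPM (-0.70, -0.91 to -0.49). H2-Q7, Naaladl2, Rad51b, Adamts1, Sugct and Pim1 completed the set, with log2 ratios between -0.98 and -0.57. Pim1 encodes a cytokine-induced kinase and had 87.4 and 58.9 CPM. For Fstl4 the direction depended on the cells: over all AT2 cells the log2 ratio was 0.02.

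Genes of the type 2 response lay on both sides of 0. Of 24 listed genes of the interleukin 4 and 13 response and alarmins, 8 reached 100 UMIs, with a median of -0.12. Of these 8, 1 was 1.5-fold lower and none 1.5-fold higher, against 2.09% and 0.870% of all genes. One of the 8 is Slc26a4, which the rule held at 1 UMI or less per cell. The alarmin Il33 had 700.9 and 745.3 CPM (0.09, 0.03 to 0.15). Chia1, acidic chitinase, had 162.9 and 136.0 CPM (-0.26, -0.39 to -0.13), and the receptor genes Il4ra and Il13ra1 had 17.7 and 19.4 CPM (0.13, -0.23 to 0.50) and 28.8 and 22.95 CPM (-0.33, -0.64 to -0.02). Stat6, the factor downstream of both receptors, had 31.1 and 31.7 CPM (0.03, -0.25 to 0.31).

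Retnla (chromosome 16 from 48842551 to 48844461) stood lower in the selected cells than in the AT2 cells that failed only the Slc26a4 step. In the selected cells it stood at 315.6 CPM in the WT and 188.6 CPM in the KO-labelled library (-0.74, -0.84 to -0.65). In the AT2 cells that failed the Slc26a4 step alone, 1443 WT and 1979 KO-labelled cells, it stood at 2086 and 4621 CPM (1.15, 1.12 to 1.17). The ratio thus lay on opposite sides of 0 in these AT2 groups, and the difference between the ratios was not tested. The share of selected cells with a Retnla UMI was nearly the same, 26.8% and 26.9%, against 6.26% and 7.94% of the shallower endothelial cells and 78.2% and 86.4% of airway secretory cells. The size of the lower value in the selected cells depended on the cells counted: the log2 ratio was -0.50 without the cells carrying RNA of other cells, -0.35 as a mean of per-cell levels, and -0.76 without the 3 cells of each library richest in Retnla. Retnla went the other way over all AT2 cells, at 1861 and 3956 CPM (1.09, 1.07 to 1.10).

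Several other genes took different ratios in the selected cells and in cells failing only the Slc26a4 step. Lcn2 had 1575 and 1138 CPM in the selected cells (-0.47) and 3264 and 3546 CPM in the Slc26a4 group (0.12, 0.10 to 0.14). Il33 had a log2 ratio of 0.09 in the selected cells and 0.55 (0.52 to 0.58) in the Slc26a4 group, where its levels were 1477 and 2160 CPM. The cholesterol list had medians of 0.20 and 0.45. Hspa8 had 0.95 and 0.98, Gdf15 -1.35 and -1.42, and MHC class II medians were -0.20 in both groups. Other lists had medians further apart, at -0.41 in the selected cells and -0.14 in the Slc26a4 group for MHC class I, and 0.23 and -0.08 for immediate-early genes. None of these differences was tested.

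Within each library the selected cells were also set against the cells that failed only the Slc26a4 step. Over 8791 genes measured in both, 214 (2.43%) were at least 1.5-fold higher in the Slc26a4 group in both libraries and 77 (0.876%) at least 1.5-fold lower. Of the MHC class I genes 9 of 15 were among the 214, with list medians of 0.71 in the WT and 1.12 in the KO-labelled library. Of the type 2 genes 7 of 9 were, with medians of 1.32 and 1.54, Slc26a4 itself among them by construction, and of the NF-kB targets 12 of 21, with medians of 0.70 and 0.79. Surfactant protein genes differed little (0.06 and 0.10). Slc5a1, a sodium-glucose transporter, went from 14.6 to 81.2 CPM in the WT (2.48) and from 14.4 to 126.7 CPM in the KO-labelled library (3.14). Tnfrsf9, a receptor of the TNF family, went from 15.3 to 74.2 CPM and from 11.6 to 96.3 CPM. Cish, a feedback gene of STAT signalling, went from 21.01 to 63.5 CPM and from 20.1 to 61.7 CPM.

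Fewer genes were higher in the selected cells. Bex2 had 156.8 CPM in the selected and 72.7 CPM in the Slc26a4 cells of the WT library, and 144.0 and 61.7 CPM in the KO-labelled library. Zbtb16 had 79.0 and 25.3 CPM, and 114.6 and 63.4 CPM. Nedd4l, a ubiquitin ligase that limits the epithelial sodium channel, had 333.4 and 193.8 CPM, and 376.3 and 213.0 CPM. Pde7b, a phosphodiesterase of cyclic AMP, had 339.9 and 195.2 CPM, and 267.9 and 103.1 CPM. Glucocorticoid-induced genes had list medians of -0.34 and -0.43 in the Slc26a4 group over the selected cells, and circadian clock genes -0.16 and -0.42. Of the clock genes 3 of 13 were among the 77 lower in the Slc26a4 group, against 0.876% of all genes.

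Genes near Plaur were examined because flanking sequence of the donor strain can travel with an engineered allele. Within 10 Mb on either side, 3 of 134 measured genes (2.24%) were at least 2-fold apart, against 46 of 8485 (0.542%) elsewhere, and 49 of all 8619 genes with a position, Plaur left out (0.569%). They were Cyp2b10 at 1.44 Mb, Cyp2f2 at 2.66 Mb and Pglyrp1 at -5.59 Mb, counted from Plaur towards the chromosome end. At 1.5-fold it was 8 of 134 (5.97%) against 2.89%. Fosb of the immediate-early list, at -5.16 Mb (0.89), was among these 8. Apoe of the sterol export list, at -4.77 Mb (0.56), lay inside the window but was not 1.5-fold apart. Pglyrp1, a peptidoglycan-binding antibacterial protein, had 13.0 and 39.5 CPM (1.60, 1.23 to 1.98) and a ratio of 2.51 without the 3 cells of each library richest in it and 2.102 in cells with no gene of another lineage. It was found in 3.39% and 16.7% of the selected cells and 1.22% and 0.816% of endothelial cells, and was higher in airway secretory cells (376.9 and 943.9 CPM). Cyp2f2, a club-cell P450, had 144.1 and 61.2 CPM (-1.24, -1.40 to -1.08), and -0.71 without the cells carrying RNA of other cells. The strain around the allele was not compared, and its part in these values was not tested.

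**Figure D4:**
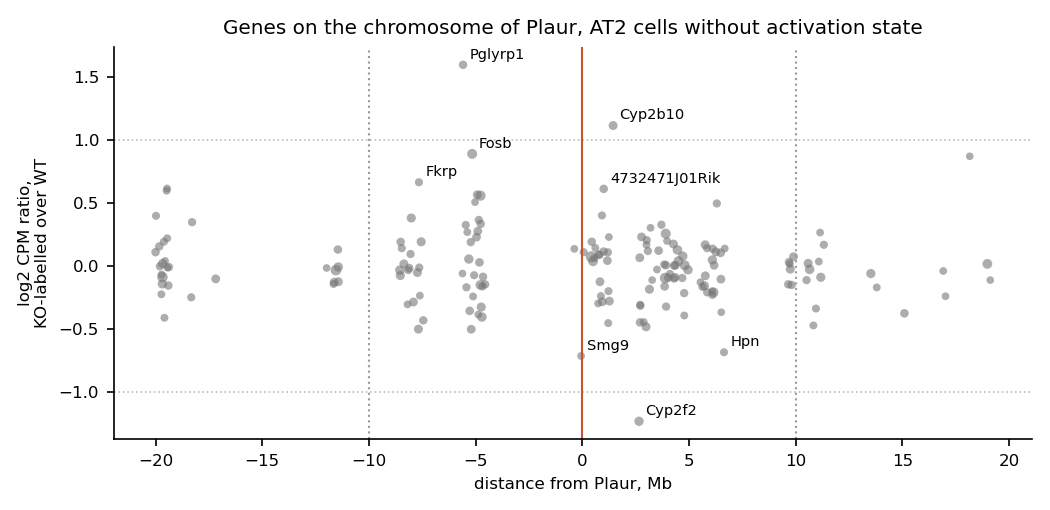
Log2 CPM ratio of KO-labelled over WT library (y axis) for each measured gene of chromosome 7 against its distance from Plaur in Mb (x axis, negative towards the chromosome start); larger points have a higher mean CPM. Dotted lines mark 10 Mb and 2-fold; 3 of 134 genes inside the window, Pglyrp1, Cyp2b10 and Cyp2f2, lie beyond 2-fold.

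Variation among the selected cells was described gene by gene. To compare cells of unequal depth, each was thinned to 3000 UMIs, which left 930 WT and 1474 KO-labelled cells (44 and 107 were shallower). Over 5811 genes the median ratio of variance to mean (Fano factor, near 1 for counting noise) was 1.05 and 1.04, and 147 genes were above 1.5 in both libraries. The measure follows depth and mean level: thinning to 1500 UMIs leaves 61 such genes, and a gene with few UMIs stays near 1 whatever its spread. Sftpc had means of 496 and 512.4 UMIs, Fano factors of 48.6 and 44.9 and a range from the 5th to the 95th percentile of 255 to 757 and 275.6 to 758.3 UMIs. Lyz1, with means of only 3.26 and 3.39 UMIs, had Fano factors of 43.3 and 35.8. Lyz2 had 14.4 and 17.2, Sftpa1 9.71 and 10.7, Retnla 12.6 and 8.20, Scd1 8.92 and 8.13, and Lcn2 5.62 and 5.82.

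The chaperone difference was also seen in the medians over cells. The summed UMIs of the 20 heat-shock genes had a median of 8 of 3000 in the WT and 12 in the KO-labelled library, with ranges from the 5th to the 95th percentile of 3 to 15 and 5 to 21. Hspa8 was at 0 in 27.5% of thinned WT cells and 8.62% of thinned KO-labelled cells. The summed surfactant genes had medians of 588 and 607.5 UMIs, with ranges of 334.4 to 877.6 and 354 to 889.7. Fos was at 0 in 36.1% and 22.6%. Across cells, the cholesterol and fatty acid sums correlated at r = 0.49 in the 930 WT and 0.45 in the 1474 KO-labelled cells, and the MHC class II and class I sums at 0.39 and 0.25. Surfactant and immediate-early sums correlated at -0.23 and -0.33, and heat-shock and immediate-early sums at 0.00 and 0.01. Cells of a library share that library and a fixed total of 3000 UMIs, so these values are descriptions.

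**Figure D5:**
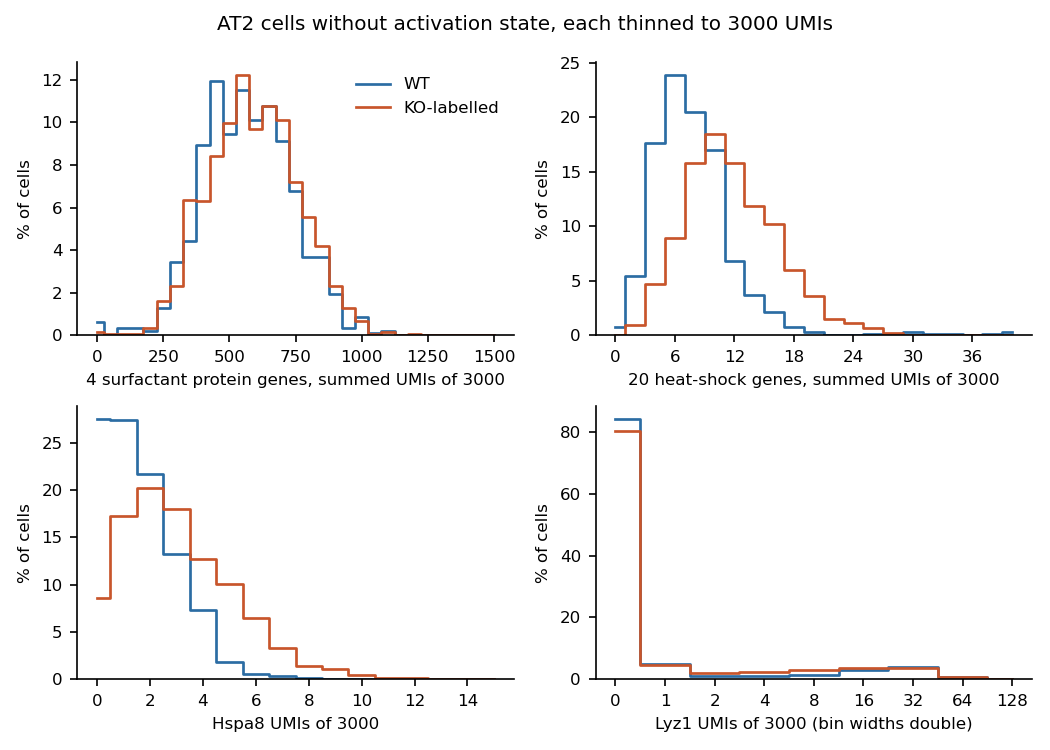
Share of cells (y axes, %) by UMIs of 3000 (x axes) for the surfactant protein genes, the heat-shock genes, Hspa8 and Lyz1 in the WT (blue, 930 cells) and KO-labelled (orange, 1474 cells) library; the last bin holds all higher values. The heat-shock medians are 8 and 12 UMIs, the surfactant medians 588 and 607.5.

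Lyz1 was absent from most selected cells and abundant in a small share of them. Lyz1 encodes a second lysozyme and lies beside Lyz2 on chromosome 10 (117287797 to 117292868). Over all selected cells it had 1141 and 1165 CPM (0.03, -0.01 to 0.08) and a UMI in 21.5% and 23.3% of cells, against 1.03% and 1.34% of endothelial cells. Without the cells carrying RNA of other cells, 753 of 886 thinned WT cells (85.0%) and 1162 of 1448 KO-labelled cells (80.3%) had no Lyz1 UMI, with exact binomial intervals of 82.5 to 87.3 and 78.1 to 82.3. Between 1 and 9 UMIs were found in 58 WT cells (6.55%, 5.01 to 8.38) and 149 KO-labelled cells (10.3%, 8.77 to 11.97). At least 10 UMIs of 3000 were found in 75 WT cells (8.47%, 6.72 to 10.5) and 137 KO-labelled cells (9.46%, 8.00 to 11.1), which together held 95.5% and 91.0% of the Lyz1 UMIs of their library. The limit of 10 UMIs was chosen after the values were seen. Lyz2 was lower in the Lyz1-rich cells, at 18342 against 24019 CPM in the WT and 14740 against 23244 CPM in the KO-labelled library. The copies are near-identical, and reads of one may be counted for the other. Sftpc was 169751 against 166563 and 170516 against 172076 CPM. Of 3353 other genes none was 2-fold apart between Lyz1-rich cells and cells without Lyz1 in the same direction in both libraries, and 22 were 1.5-fold apart.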

How the data were processed

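Sorted lung cells of 1 library per genotype were measured by droplet 3' sequencing, with 57028943 UMIs in the WT and 51529241 in the KO-labelled library. The deposited files hold UMI counts per gene and barcode, which the authors made with Cell Ranger 7.0.0, per the file headers (the submitters' processing notes also name 7.1.0), on mm10. Whether introns and strand were counted is not given in the sources used here. UMIs of selected cells were summed per library and divided by their total (CPM). A log2 ratio carries an exact conditional binomial interval, and a share an exact Clopper-Pearson interval. Intervals cover counting error only. No test was made. Ratios are described for genes with at least 100 UMIs over both libraries. The members and lists were chosen with earlier results of these data known. Named genes are the 12 highest and 12 lowest ratios among genes that reach 200 UMIs in all and 30 CPM in either library, without mitochondrial, ribosomal, haemoglobin, immunoglobulin, unnamed and rule genes and genes over 10 times higher in another compartment (4086 genes). Other compartments were set by markers. Positions are from GENCODE M21 on GRCm38, which held 32235 of 32285 gene identifiers, and promoters from RefSeq. The computations were tested on simulated data. Alternatives were other scalings (edgeR 4.0.16, DESeq2 1.42.0), UMI minimums, cell filters, thinning to 3000 UMIs and removal of doublets. Removing cells that carry RNA of other cells, or the 3 cells richest in a gene, was added after seeing the data. Python 3.11.15, numpy 2.4.6, scipy 1.17.1, pandas 2.3.3, scanpy 1.11.5 and R 4.3.3 were used.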

Additional observations from a re-analysis of the deposited data

Results flagged for a closer look

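The selected cells were compared with the AT2 cells that failed only the Slc26a4 step. Only a fixed set of genes and the genes named by rule were looked at, not all 8621 genes. For 4 of the genes looked at, the log2 ratio of KO-labelled over WT and its counting interval lay on opposite sides of 0. The difference itself was not tested in any of them, since each genotype has 1 library. Retnla had -0.74 in the selected cells and 1.15 in the Slc26a4 group, a difference of 1.8901. Lcn2 had -0.47 and 0.12, a difference of 0.5882. Ccl20, a chemokine for dendritic cells and lymphocytes, had -3.75 (-4.50 to -3.09) and 0.46 (0.19 to 0.73), a difference of 4.2130, and 116 of its 182 UMIs in the selected WT cells came from 1 cell. Sftpb, a surfactant protein gene, had 0.07 and -0.03, a difference of -0.1018, with levels of 6432 and 6763 CPM in the selected cells and 5981 and 5860 CPM in the Slc26a4 group.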

How the results depend on the processing

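No paired analysis was possible because each genotype has 1 library. Of the values that answer a comparison, 121 of 151 under the alternatives stayed near the main value, 29 moved and 1 reversed; of the values for single genes and other lists, 898 of 982 stayed, 80 moved and 4 reversed. With AT2 cells thinned to 3000 UMIs before the activation steps, the share without activation state was 37.79% in the WT and 35.13% in the KO-labelled library, and the difference reversed to -2.654 points. Over all AT2 cells, which adds the activated ones, the ratio of KO-labelled over WT reversed for Fstl4 (0.0160), Retnla (1.0878), Lcn2 (0.1537) and the immediate-early list (-0.0931). In those cells the medians moved to 0.4934 for cholesterol, -0.1887 for MHC class I, -0.5651 for NRF2 targets and 0.1560 for surfactant proteins. The surfactant median was 0.1098 with DESeq2 size factors, 0.1106 with TMM factors, 0.0504 as a mean over cells and 0.0484 without cells carrying RNA of other cells. Genes at least 2-fold higher numbered 28 over all AT2 cells, 98 with a minimum of 20 UMIs, 4 with 500, 15 with cells thinned to 3000 UMIs and 14 without the 3 highest cells of each gene. Genes at least 2-fold lower numbered 366, 356, 8 and 68 in the first 4 of these and 25 without cells carrying RNA of other cells. Genes at least 1.5-fold higher numbered 361 with a minimum of 20 UMIs, 21 with 500, 186 when thinned and 114 without the 3 highest cells, and at least 1.5-fold lower 837 over all AT2 cells, 858, 21 and 315 in the next 3. A lower minimum brings in genes with few UMIs and wide counting intervals. Genes with a Fano factor over 1.5 numbered 61 with cells thinned to 1500 UMIs.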
